A study of Mus musculus with 55 samples.

Results

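The data concerned 8 transcription factor genes of myeloid cells: Cebpa, Cebpb, Cebpd, Cebpe, Cebpg, Spi1, Gfi1 and Zeb2. They were taken by symbol from the 55421 genes of a first table of counts, and the same 8 symbols were read from the 35976 usable genes of a second one. C/EBP proteins are basic leucine zipper factors that bind DNA as dimers: C/EBPa is needed for the step from common myeloid to granulocyte-macrophage progenitors, C/EBPe for late neutrophil maturation, C/EBPb and C/EBPd are best known from stress and inflammatory granulopoiesis, and C/EBPg lacks a strong activation domain of its own. PU.1, the product of Spi1, is an ETS factor that opens myeloid and lymphoid genes in a dose-dependent manner. Gfi1 is a zinc finger repressor that favours neutrophils over macrophages and limits stem cell cycling, and Zeb2 is a zinc finger and homeobox repressor of stem, myeloid and dendritic cells.

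The first table held 46 RNA-seq libraries of mouse bone marrow, 22 labelled WT and 24 labelled Tet2-/-, and the second 9 libraries of LT-HSCs, 3 each labelled WT, Sting-/- and Tet2;Sting DKO. TET2 is a DNA demethylating enzyme and STING the adapter of cytosolic DNA sensing. The conditional Tet2 f/f allele was cut by Mx1-Cre, which acts in interferon-responsive cells of many kinds, after 5 doses of poly(I:C) that began at 4 weeks of age. The mice were C57BL/6, and those of the first table were analysed 16 weeks after induction. The paper does not state that time for the mice of the second table. Each library came from 200 sorted cells per the labels, while the paper's methods give a larger approximate number per group. The populations of the first table were LT-HSCs and ST-HSCs (long- and short-term haematopoietic stem cells), common myeloid progenitors (CMPs), granulocyte-macrophage progenitors (GMPs), megakaryocyte-erythroid progenitors (MEPs) and common lymphoid progenitors (CLPs). There were 4 libraries in each group of the first table except WT LT-HSCs and WT ST-HSCs, which had 3. Genotypes below are those of the labels.

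Total counts ran from 50458473 to 102148079 in the first table and from 26776517 to 78682096 in the second. LT-HSC libraries had counts for 17768 to 18631 genes in the first table and 9382 to 11528 in the second, which lists fewer genes. The part of this lower detection in the values of the second table was not tested. Among WT libraries the summed level of 12 primary granule genes was 37725 to 49112 CPM (counts scaled to the size of the library) in GMPs and at most 8511 elsewhere, and that of 13 erythroid markers was 17974 to 20118 CPM in MEPs. The 8 megakaryocyte markers summed to 80.2 to 262 CPM in WT MEPs, below the 792 to 1107 CPM of WT CMPs and the 1077 to 1128 CPM of WT LT-HSCs. Markers of lymphoid progenitors summed to 1368 to 2149 CPM in WT CLPs, which also held 2592 to 3876 CPM of macrophage and dendritic cell markers against 273 CPM or less in the other WT libraries of the first table. Of these 8 markers 5 had counts in WT CLPs, while C1qa, C1qb and C1qc were at 0 in every WT CLP library. T and NK cell markers summed to 73.4 to 506 CPM in WT CLPs and to 21.5 CPM or less in those other WT libraries. The targeted genes did not set the labels apart. Tet2 had a mean of 11 to 47.7 CPM over the 6 groups labelled Tet2-/- and of 12.3 to 37.6 CPM over the WT groups, and a count over a whole gene does not show which exons were read. In the second table Tmem173, which encodes STING, had 1788, 1168 and 0 counts in the libraries labelled WT, 6333, 0 and 3835 in the Sting-/- libraries by label, and 0, 14 and 1128 in the Tet2;Sting DKO libraries. The limit of a whole-gene count holds for Tmem173 too. By Western blot the paper reports loss of STING protein in bone marrow cells of Sting-/- and Tet2;Sting DKO mice.

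A group of libraries stood apart. In libraries labelled Tet2-/-, 258 genes were called lower in all of CMPs, GMPs and MEPs, and 5 were called higher in all of them. The median log2 CPM of the 258 genes was 5.61, 5.77 and 5.67 in WT CMPs, GMPs and MEPs. It lay between 3.43 and 3.68 in LT-HSCs and ST-HSCs of both labels and in CMPs, GMPs and MEPs labelled Tet2-/-, and at 4.6 and 4.4 in WT and Tet2-/- CLPs. Medians of single CLP libraries reached 5.34 in WT and 5.31 in Tet2-/-, beside a lowest value of 5.55 in WT CMPs. By the way the genes were chosen, the 12 WT libraries of CMPs, GMPs and MEPs lay above the Tet2-/- libraries of these populations. The 12 also differed from LT-HSCs and ST-HSCs of both labels, which took no part in the choice. In CMPs, GMPs and MEPs a property of the 12 libraries and the genotype cannot be told apart. Spi1 was one of the 258 genes and the only one of the 8 factors among them.

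The genes lie in build mm10 as follows: Spi1 on chr2:91082390-91115756 (plus strand, 7 exon blocks), Cebpa on chr7:35119293-35121928 (plus, 1 block), Cebpb on chr2:167688915-167690418 (plus, 1 block), Cebpd on chr16:15887286-15891031 (plus, 1 block), Cebpe on chr14:54710360-54712174 (minus, 2 blocks), Cebpg on chr7:35046422-35056573 (minus, 3 blocks), Gfi1 on chr5:107716657-107726036 (minus, 8 blocks) and Zeb2 on chr2:44983632-45117395 (minus, 18 blocks). Exons of Cebpb share bases with Tmem189, those of Cebpd with Spidr, those of Gfi1 with A430072P03Rik and those of Cebpa with Gm45091. Those of Cebpg share bases with Gm44836 on its own strand and with Gm45095. Those of Zeb2 share bases with the antisense gene Zeb2os, with Gm27761 and, on its own strand, with Mir5129. Reads in these stretches cannot be assigned to 1 gene if the counting was unstranded, which the sources used here do not give. Those shared with Gm44836 or Mir5129 cannot be assigned even with strand. No gene of the annotation overlapped Spi1 or Cebpe. Spi1 was therefore free of shared exons.

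RefSeq promoter windows (GRCm38.p6, 250 bases before to 50 after the start of transcription) were found for 5 of the 8 genes, Cebpa, Cebpb, Cebpg, Gfi1 and Zeb2. That of Cebpa and 1 of those of Gfi1 are shown because both genes had their highest WT mean in GMPs. Of the Zeb2 windows 1 is shown because Zeb2 was not called between genotypes in the populations where Spi1 fell. Letters in capitals are matches to TTNNGNAA (the C/EBP form), GAGGAA (PU.1), AATCA (Gfi1), CCAAT or TATAAA on either strand; no matches overlapped in these windows. Sequences run 5′ to 3′ on the strand of the gene, at chr7:35119043-35119342 for Cebpa, chr5:107725756-107726055 for Gfi1 and chr2:45117393-45117692 for Zeb2.
Cebpa: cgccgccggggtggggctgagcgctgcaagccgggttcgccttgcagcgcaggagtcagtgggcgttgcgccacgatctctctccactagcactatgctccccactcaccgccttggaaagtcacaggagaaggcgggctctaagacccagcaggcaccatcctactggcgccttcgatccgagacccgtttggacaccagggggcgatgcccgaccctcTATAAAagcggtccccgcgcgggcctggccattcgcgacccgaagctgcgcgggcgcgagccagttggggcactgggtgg
Gfi1: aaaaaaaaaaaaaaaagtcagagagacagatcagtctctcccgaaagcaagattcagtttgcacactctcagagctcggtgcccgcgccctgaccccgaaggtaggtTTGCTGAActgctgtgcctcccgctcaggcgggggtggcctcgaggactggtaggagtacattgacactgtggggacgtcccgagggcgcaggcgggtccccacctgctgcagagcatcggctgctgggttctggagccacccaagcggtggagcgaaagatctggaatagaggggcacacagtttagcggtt
Zeb2: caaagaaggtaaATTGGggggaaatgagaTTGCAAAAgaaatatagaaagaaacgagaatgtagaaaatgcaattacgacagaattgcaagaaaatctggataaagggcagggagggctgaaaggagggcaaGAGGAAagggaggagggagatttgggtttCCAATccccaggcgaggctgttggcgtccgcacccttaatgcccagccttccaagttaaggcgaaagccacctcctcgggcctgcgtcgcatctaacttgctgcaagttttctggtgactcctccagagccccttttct
The Cebpa window held TATAAA at position -30, and the Gfi1 window shown a C/EBP form at position -143 on the other strand. A further Gfi1 window, at chr5:107724294-107724593, held no match. The Zeb2 window shown held the PU.1 letters at -118, a C/EBP form at -221 and CCAAT at -238 and -89. It held the most matches of the Zeb2 windows, and the others held the PU.1 letters alone. Of 32851 promoter windows of this length, 40.7% held the C/EBP form, 28.3% the PU.1 letters, 37.0% the Gfi1 letters, 37.4% CCAAT and 13.6% TATAAA. The GC content was 67.3% for Cebpa, 58.0% for Gfi1 and 49.3% for this Zeb2 window, beside a median of 52.7%.

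Spi1 was the one factor of the 8 that was called between genotypes, and it was lower in CMPs, GMPs and MEPs labelled Tet2-/-. A gene was called when the edgeR quasi-likelihood test gave a Benjamini-Hochberg adjusted p below 0.05 over all genes tested and the change was at least 2-fold. In WT CMPs Spi1 stood at 97.4, 89.4, 119 and 106 CPM, and in Tet2-/- CMPs at 16.3, 9.37, 11.9 and 11.6 CPM. The groups did not overlap. The log2 fold change was -3.08 ± 0.19 (SE of the difference of mean log2 CPM, n = 4 and 4), an 8.45-fold lower level (edgeR adjusted p = 2.89e-05, and a two-sided exact test by permutation gave p = 0.0286, the lowest this design can give). Of the 8 factors tested in CMPs, 1 was called, beside 4.57% of 16047 genes.

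In GMPs the difference was of similar size at a higher level. WT GMPs held 243, 177, 190 and 218 CPM of Spi1, the highest levels of any factor in any population, and Tet2-/- GMPs 32.3, 34.5, 35.9 and 36.3 CPM. Every Tet2-/- library was below every WT library. Spi1 was 6.10-fold lower (log2 fold change -2.61 ± 0.11, n = 4 and 4, edgeR adjusted p = 1.19e-06; exact permutation p = 0.0286). One of the 8 factors was called in GMPs, where 4.37% of 16563 genes were. MEPs, which give rise to red cells and platelets, had little Spi1 in either genotype. Their 4 WT libraries lay between 7.10 and 8.16 CPM and their Tet2-/- libraries at 0.973, 0.928, 0.181 and 0.667 CPM, which is 95, 61, 12 and 53 counts. The groups were again apart, with a log2 fold change of -3.45 ± 0.53 (n = 4 and 4, edgeR adjusted p = 0.0030; exact permutation p = 0.0286). Of 5 factors tested in MEPs 1 was called, beside 4.36% of 14934 genes.

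In stem cells and CLPs Spi1 was not called. LT-HSCs had 9.05, 14.4 and 11.8 CPM in WT and 5.76, 12.4, 14.9 and 10.1 CPM in Tet2-/- libraries (log2 fold change -0.10 ± 0.35, n = 4 and 3, edgeR adjusted p = 0.998). ST-HSCs had 11.7, 11.1 and 14.8 CPM in WT and 15.7, 19.9, 19.5 and 23.5 CPM in Tet2-/- libraries. Here each Tet2-/- library lay above all WT libraries, by a log2 fold change of 0.68 ± 0.17 (n = 4 and 3, edgeR adjusted p = 0.841; exact permutation p = 0.0571), so the direction was opposite to that in CMPs, GMPs and MEPs. CLPs varied widely within a genotype, at 118, 66.1, 13.3 and 28.8 CPM in WT and 5.58, 60.2, 106 and 94.0 CPM in Tet2-/- libraries (log2 fold change 0.25 ± 1.21, n = 4 and 4, edgeR adjusted p = 1).

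**Figure D1:**
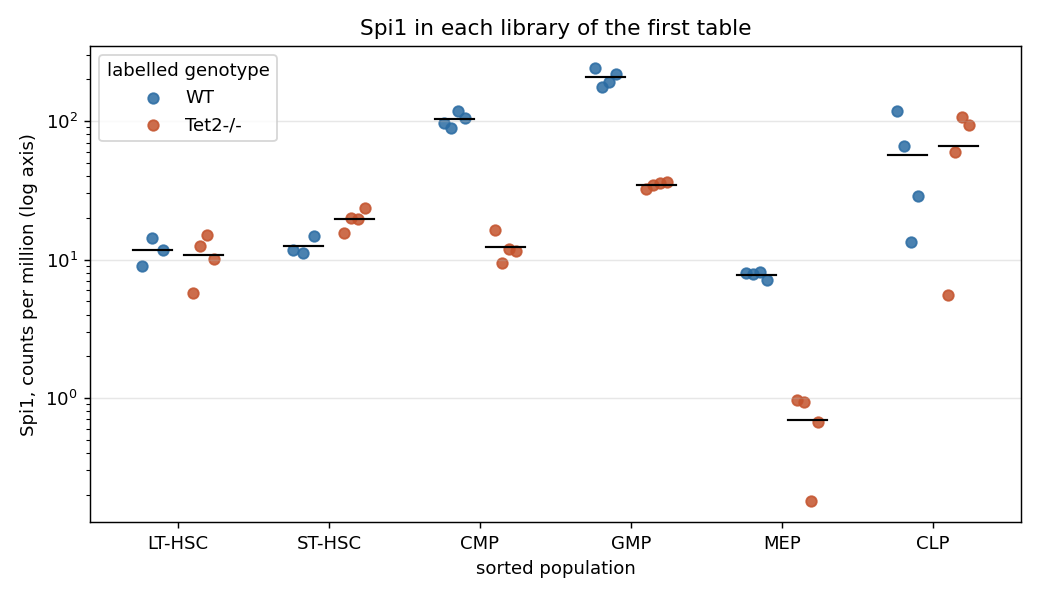
Spi1 in each of the 46 libraries of the first table, in CPM on a log axis, by sorted population, with WT in blue, Tet2-/- in orange and the group mean as a black bar. The Tet2-/- points lie below all WT points in CMPs (9.37 to 16.3 against 89.4 to 119), GMPs and MEPs, and overlap them in LT-HSCs and CLPs.

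The genotype difference of Spi1 itself differed between the 6 populations (F test of the genotype by population terms over 46 libraries, edgeR adjusted p = 0.000132). By the same test 2.65% of 22360 genes passed, and none of the other 7 factors did; the smallest of their adjusted p-values was 0.178, for Cebpe. Without the libraries of CMPs, GMPs and MEPs the adjusted p for Spi1 was 1. Leaving out any 1 library gave an adjusted p of 5.22e-07 to 0.000428.

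Spi1 is set beside the 258 genes in the plot of group levels, and its fall in CMPs, GMPs and MEPs is shared with them by the way they were chosen. The mean log2 CPM of Spi1 in Tet2-/- CMPs was 3.59, beside 3.53 in WT LT-HSCs and 3.64 in WT ST-HSCs, whereas WT CMPs had 6.68. Tet2-/- GMPs (5.12) lay above Tet2-/- CMPs and the WT stem cells, and below WT CMPs and WT GMPs (7.68). Erythroid markers moved with the genotype in CMPs. Their summed level was 1053 to 2594 CPM in WT and 4043 to 7778 CPM in Tet2-/- CMPs, and of 13 genes tested 4 were called higher and 1, Klf1, lower. Beside this and the marker counts below, 4.57% of all genes were called in CMPs, 4.37% in GMPs and 4.36% in MEPs. Car1, a carbonic anhydrase of early erythroid cells, had 3584 ± 1215 CPM (SD, n = 4) in Tet2-/- and 871 ± 399 CPM in WT CMPs. Ermap, a blood group protein of erythroid cells, and Car2, another carbonic anhydrase, were called higher as well. The part of erythroid cells in the Spi1 difference of CMPs was not tested, and in a bulk library fewer cells of a kind and less RNA per cell cannot be told apart. In GMPs erythroid markers summed to 224 CPM or less in every library, and primary granule genes to 37725 to 49112 CPM in WT and 41146 to 51217 CPM in Tet2-/- libraries, which overlapped. MEPs had 17974 to 20118 CPM of erythroid markers in WT and 19083 to 24858 CPM in Tet2-/- libraries, and 2 of 13, the erythroid factor gene Klf1 and the globin gene Hba-a1, were called lower. Megakaryocyte markers had 1 of 8 called lower in CMPs and in MEPs, the platelet glycoprotein gene Gp1bb, and 1 of 7 called higher in GMPs, the integrin gene Itga2b. Of 8 HSC markers Mllt3 was called higher in CMPs. In the lymphoid, T and NK cell, and macrophage and dendritic cell lists 0 genes were called by edgeR in CMPs, GMPs and MEPs. At an unadjusted p below 0.05 there were 3, 1 and 0 lymphoid genes, 0, 0 and 0 T and NK cell genes, and 0, 1 and 0 macrophage and dendritic cell genes.

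**Figure D2:**
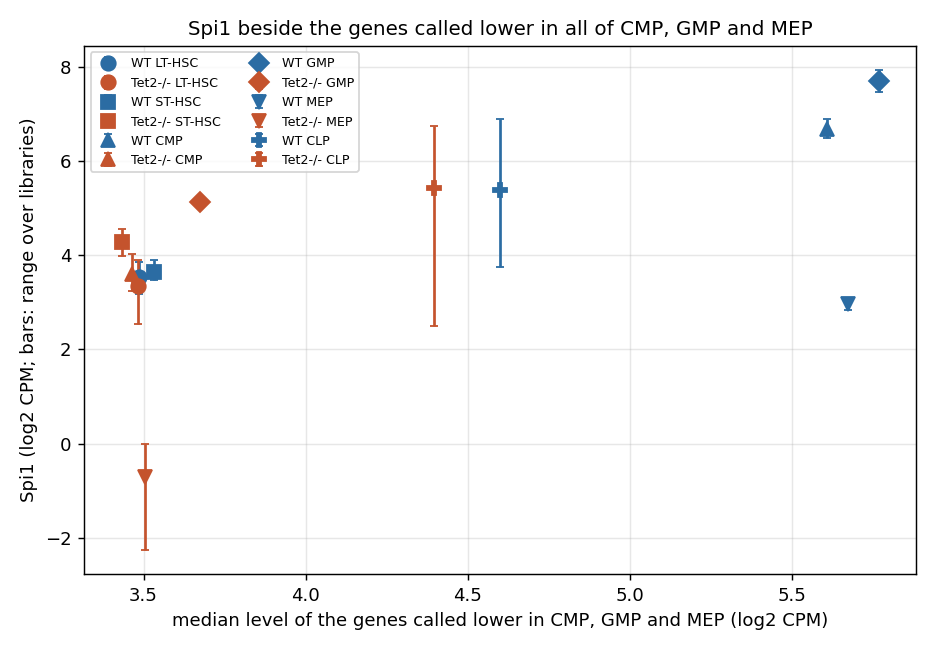
Mean log2 CPM of Spi1 (vertical, bars give the range over libraries) against the median log2 CPM of the 258 genes called lower in Tet2-/- CMPs, GMPs and MEPs (horizontal), 1 point per group. WT CMPs, GMPs and MEPs lie at 5.61 to 5.77 on the horizontal axis, apart from all other groups, while Spi1 in Tet2-/- CMPs lies at the level of the stem cell groups.

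Cebpa, the factor of the CMP to GMP step, did not follow Spi1. It stood at 10.0, 17.6, 25.1 and 11.6 CPM in WT and 15.1, 15.4, 17.7 and 9.72 CPM in Tet2-/- CMPs, so that the groups overlapped. GMPs had 26.1, 30.0, 24.6 and 31.6 CPM in WT and 30.5, 51.7, 38.9 and 31.3 CPM in Tet2-/- libraries (edgeR adjusted p = 0.303). Within a library the log2 ratio of Spi1 to Cebpa was therefore 2.76 ± 0.55 in WT and -0.23 ± 0.48 in Tet2-/- CMPs, and 2.88 ± 0.28 and -0.10 ± 0.35 in GMPs (SD, n = 4 each). MEPs gave much the same pair of ratios, 2.78 ± 0.36 and 0.09 ± 0.88. In ST-HSCs Cebpa went the other way from Spi1, with 5.42, 6.57 and 9.76 CPM in WT and 2.51, 5.34, 2.88 and 3.47 CPM in Tet2-/- libraries. These groups did not overlap, but the difference did not pass the test (log2 fold change -0.996 ± 0.34, n = 4 and 3, edgeR adjusted p = 0.925; exact permutation p = 0.0571).

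Zeb2 was not called between genotypes in any population. LT-HSCs had 42.9, 42.1 and 36.6 CPM in WT and 27.1, 20.3, 39.4 and 16.5 CPM in Tet2-/- libraries, and ST-HSCs had means of 30.2 ± 11.1 and 19.9 ± 7.56 CPM, with overlapping groups in both. In WT CMPs it held 81.9, 83.9, 101 and 87.6 CPM and in Tet2-/- CMPs 85.9, 108, 72.6 and 87.9 CPM, with means of 88.6 ± 8.64 and 88.7 ± 14.7 CPM. MEPs had means of 48.8 ± 5.72 and 49.8 ± 5.60 CPM (SD, n = 4 each). GMPs had 131, 103, 117 and 105 CPM in WT and 150, 169, 134 and 125 CPM in Tet2-/- libraries, a log2 fold change of 0.31 ± 0.12 (n = 4 and 4, edgeR unadjusted p = 0.0439, adjusted p = 0.268) with overlapping groups. The groups of Zeb2 thus overlapped in each of the populations in which those of Spi1 were apart. CLPs were uneven, with 112, 22.5, 0 and 11.5 CPM in WT and 26.2, 108, 25.9 and 33.4 CPM in Tet2-/- libraries.

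Cebpe and Gfi1, which act in sequence in neutrophil development, also overlapped between genotypes. Cebpe had 37.7, 37.3, 45.0 and 66.1 CPM in WT and 27.9, 54.4, 42.3 and 47.9 CPM in Tet2-/- GMPs (edgeR adjusted p = 0.823). In CMPs it was low, at 32 to 184 counts in WT and 20 to 47 in Tet2-/- libraries, with a mean of 1.04 ± 0.91 CPM in WT and 0.360 ± 0.124 CPM in Tet2-/- libraries (SD, n = 4 each, edgeR adjusted p = 0.327). Gfi1 had 20.7, 18.7, 19.6 and 29.8 CPM in WT and 19.0, 29.1, 18.4 and 19.3 CPM in Tet2-/- GMPs (edgeR adjusted p = 0.895). WT and Tet2-/- GMPs therefore overlapped for Cebpa, Cebpe, Gfi1 and Zeb2, none of which was called, and were apart for Spi1. The lack of a call does not show equal levels: mean Cebpa was 28.1 CPM in WT and 38.1 CPM in Tet2-/- GMPs.

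Cebpd, Cebpg and Cebpb were scattered more widely. Cebpd ranged from 1.80 to 19.8 CPM among the 4 WT GMP libraries and from 4.67 to 7.10 CPM among the Tet2-/- ones. Cebpg, the partner without an activation domain, was the one factor besides Zeb2 and Spi1 with an unadjusted p below 0.05 in a genotype comparison. LT-HSCs had 25.9, 5.78 and 7.64 CPM of Cebpg in WT and 3.56, 3.32, 5.35 and 1.87 CPM in Tet2-/- libraries. The groups were apart by a narrow gap, and the log2 fold change of -1.88 ± 0.73 did not pass (n = 4 and 3, edgeR unadjusted p = 0.0174, adjusted p = 0.743; exact permutation p = 0.0286). Without WT LT-HSC replicate 2 the log2 fold change was -0.90. Cebpb, the emergency granulopoiesis factor, stayed at or below 3.50 CPM in all 46 libraries, and every group mean was below 2 CPM.

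Counted over the factors, 0 of 7 tested were called in LT-HSCs by edgeR (1 at an unadjusted p below 0.05, 0 by DESeq2), where 0.0245% of 16351 genes were called. For ST-HSCs it was 0 of 7 (0 unadjusted, 0 by DESeq2) beside 0.0185% of 16212 genes, and for CLPs 0 of 7 (0 unadjusted, 0 by DESeq2) beside 0.00766% of 13060 genes. Cebpe did not pass the low-count filter in LT-HSCs, ST-HSCs, MEPs and CLPs and was not tested there, nor were Cebpb and Gfi1 in MEPs. With all 46 libraries in 1 fit Cebpe was called higher in Tet2-/- CLPs, beside 1477 of 22360 genes. Of simulated 4-fold changes the test recovered 68.8% in the GMP genotype comparison, 29.6% in that of LT-HSCs, 0% in that of CLPs and 21.2% between WT GMPs and CMPs.

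**Figure D3:**
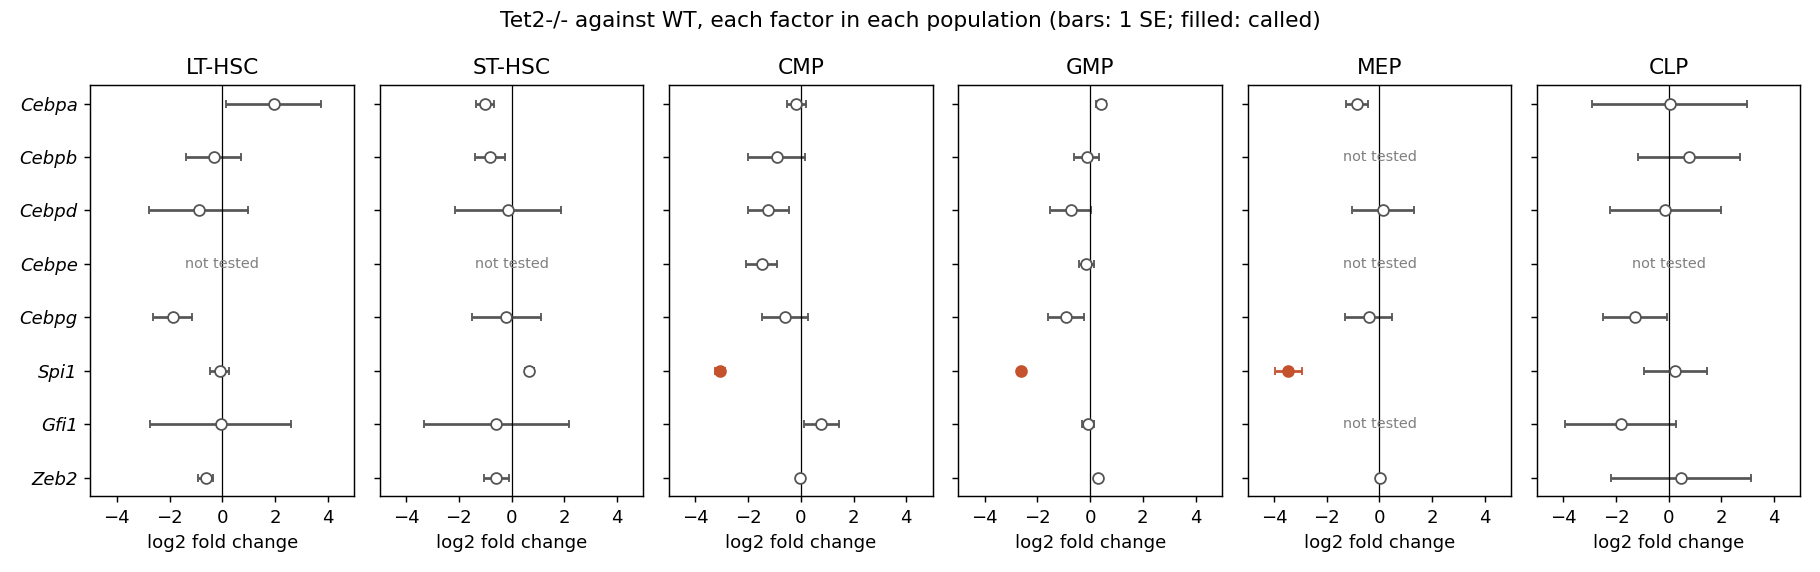
Log2 fold change of each factor, Tet2-/- against WT, in each population, with bars of 1 SE of the difference of mean log2 CPM and filled points for called changes. Spi1 in CMPs (-3.08), GMPs (-2.61) and MEPs (-3.45) is filled, all other points are open, and factors that did not pass the low-count filter are marked as not tested.

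Partners, co-factors and target genes of these factors were read from fixed lists, beside the 4.57% of all genes called in CMPs, 4.37% in GMPs and 4.36% in MEPs. For all of these lists, as for Spi1, genotype and a property of the 12 WT libraries cannot be told apart in these populations. Of 18 tested partners and co-factors (C/EBP dimer partners, and proteins that act with PU.1 or Gfi1) 2 were called lower in CMPs and the same number in GMPs, none higher, with a median log2 fold change of -0.27 in either beside 0.03 over all genes. Jun, an AP-1 subunit that can act with PU.1, fell from 362 ± 123 to 56.3 ± 13.6 CPM in GMPs (SD, n = 4 each, edgeR adjusted p = 3.89e-05) and was also called lower in CMPs and MEPs. Trib1, an adapter that directs C/EBPa to degradation, fell from 51.7 ± 4.14 to 12.4 ± 4.88 CPM in GMPs and from 17.2 ± 3.72 to 3.55 ± 1.5 CPM in CMPs. In MEPs 1 of 17, Jun, was called.

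Of 22 myeloid growth factor receptors and surface genes that C/EBPa and PU.1 are known to switch on, 2 were called lower and 0 higher in CMPs and again 2 and 0 in GMPs. The median log2 fold change was -0.60 in CMPs and -0.04 in GMPs. Il6ra, a receptor chain for interleukin-6, was the one called in both, with 10.9 ± 4.24 against 55.7 ± 13.4 CPM in GMPs and 2.55 ± 1.70 against 12.9 ± 6.08 CPM in CMPs. Ncf1, a subunit of the phagocyte oxidase, was called lower in CMPs, and Csf2ra, the GM-CSF receptor chain, in GMPs (14.9 ± 3.07 against 41.4 ± 14.3 CPM; SD, n = 4 each, edgeR adjusted p = 0.0023). Primary granule genes had 0 of 12 called in CMPs (2 at an unadjusted p below 0.05) and 1 of 12 in GMPs, Igfbp4, which encodes an insulin-like growth factor binding protein and no granule protein (151 ± 18.0 against 311 ± 130 CPM). Secondary granule and late neutrophil genes had 0 of 5 and 0 of 8 called in CMPs and GMPs (edgeR; 2 and 2 at an unadjusted p below 0.05). Of 10 genes that Gfi1 is known to repress, 0 were called by edgeR in CMPs and GMPs (3 and 3 at an unadjusted p below 0.05), and 1 of 8, the pro-apoptotic Bax, was lower in MEPs (39.4 ± 7.2 against 95.2 ± 10.9 CPM).

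By mean level across the WT populations, Cebpa, Cebpd, Cebpe, Spi1, Gfi1 and Zeb2 were highest in GMPs, Cebpg in CMPs and Cebpb in ST-HSCs. GMPs overlapped the next population in order for Cebpa (CMPs, edgeR adjusted p = 0.897), Cebpd (CMPs, 0.988) and Gfi1 (CLPs, 0.782). CMPs overlapped CLPs for Cebpg (edgeR adjusted p = 0.680), and ST-HSCs overlapped LT-HSCs for Cebpb (1). The GMP and CMP ranges of Spi1 and Zeb2 were apart but did not pass the test either (edgeR adjusted p = 0.175 and 0.941). With only the 2 populations in the fit, Spi1 and Gfi1 were called higher in WT GMPs than in WT CMPs, and Zeb2 was not. Compared per kilobase of exon in WT GMPs, the mean level was 76.9 CPM per kb for Spi1, 37.5 for Cebpe, 10.7 for Cebpa, 6.97 for Gfi1, 5.72 for Zeb2, 3.39 for Cebpg, 2.56 for Cebpd and 0.231 for Cebpb. Exon lengths differed between the annotation and the second table. The latter would give 11.4 CPM per kb for Zeb2, above Cebpa, and 4.25 for Cebpd, above Cebpg at 4.05.

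**Figure D4:**
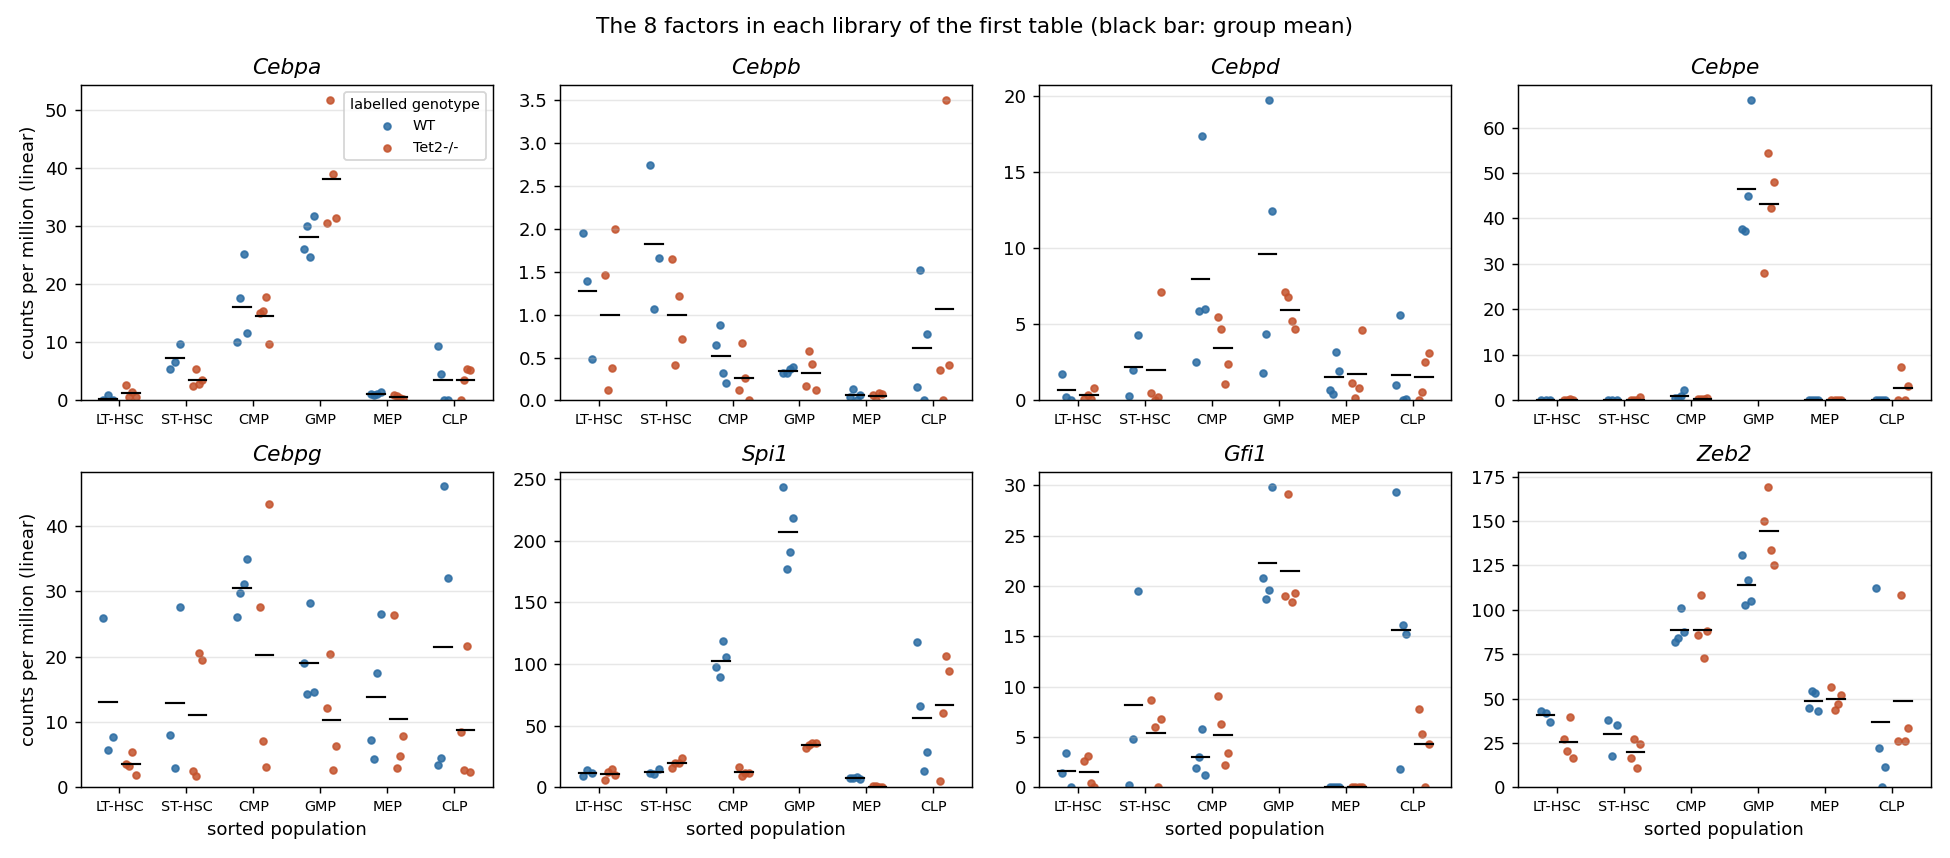
CPM of each of the 8 factors on linear axes in each library of the first table, by population, WT in blue and Tet2-/- in orange, with group means as black bars. Cebpe appears in GMPs (27.9 to 66.1 CPM) and hardly elsewhere, Gfi1 is at 4 counts or less in MEPs, and Spi1 alone is far lower in Tet2-/- than in WT CMPs and GMPs.

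Spi1 in WT libraries ran from GMPs (207 ± 29.7 CPM, SD, n = 4) over CMPs (103 ± 12.45), CLPs (56.6 ± 46.7), ST-HSCs (12.54 ± 1.97, n = 3) and LT-HSCs (11.7 ± 2.66, n = 3) to MEPs (7.78 ± 0.47). Neighbours did not differ beyond the test except CLPs and ST-HSCs (edgeR adjusted p = 0.0018). GMPs, though above CMPs in every library, had an adjusted p of 0.175, and were called higher with only the 2 populations in the fit. In Tet2-/- libraries the order was CLPs (66.6 ± 45.1 CPM), GMPs (34.8 ± 1.80), ST-HSCs (19.7 ± 3.21), CMPs (12.3 ± 2.89), LT-HSCs (10.8 ± 3.90) and MEPs (0.687 ± 0.363), and the last step alone passed (edgeR adjusted p = 0.000153). CMPs thus stood above ST-HSCs in WT libraries, while the groups overlapped in Tet2-/- libraries. From ST-HSCs to CMPs the log2 fold change of Spi1 was 3.03 ± 0.15 in WT (edgeR adjusted p = 0.000522) and -0.69 ± 0.20 in Tet2-/- libraries (adjusted p = 0.576). The WT steps from stem cells or CLPs to CMPs, GMPs and MEPs cross to the 12 libraries that stood apart: the median log2 CPM of the 258 genes was 3.53 in WT ST-HSCs and 5.61 in WT CMPs. That property and the population cannot be told apart in these steps.

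Cebpe was the factor most confined to a population. Its WT mean was 46.5 ± 13.5 CPM in GMPs, 1.04 ± 0.91 CPM in CMPs and 0.0465 CPM or less elsewhere, and GMPs lay 5.46 above CMPs on the log2 scale (edgeR adjusted p = 0.0284). That call was lost in 7 of 8 fits that left out 1 library (log2 fold change 5.17 to 6.19 over the 8). All 4 WT CLP libraries had 0 counts, so that GMPs were at least 642-fold higher (against 3 counts per library on the same scale), and all 4 Tet2-/- MEP libraries had 0, for at least 1082-fold. In Tet2-/- CLPs Cebpe stood at 0, 7.31, 0 and 3.27 CPM, in libraries whose primary granule genes summed to 2466 to 14921 CPM. The part of granulocytic cells in these values was not tested.

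Gfi1 was at 0 counts in all WT MEPs and at 4 counts or less in the Tet2-/- ones. WT GMPs, at 22.2 ± 5.13 CPM, were at least 484-fold above WT MEPs, and WT CMPs (2.99 ± 2.00 CPM) at least 65.2-fold. CLPs held the next highest WT level (29.4, 1.80, 16.1 and 15.2 CPM), which overlapped that of GMPs. ST-HSCs spread from 0.204 to 19.5 CPM in WT, and LT-HSCs from 0 to 3.40 CPM, so that no order among stem cells and CMPs passed the test.

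Mean levels of Cebpa were higher along the myeloid path, from 0, 0.977 and 0 CPM in WT LT-HSCs over 7.25 ± 2.25 CPM in ST-HSCs and 16.1 ± 6.84 CPM in CMPs to 28.1 ± 3.28 CPM in GMPs, but no neighbouring pair passed the test in either genotype. With only the 2 populations in the fit, Cebpa was called higher in Tet2-/- CMPs than ST-HSCs and in Tet2-/- GMPs than CMPs. MEPs had 1.13 ± 0.23 CPM in WT and 0.614 ± 0.334 CPM in Tet2-/- libraries. From CMPs to MEPs the log2 fold change was -4.49 in Tet2-/- libraries (edgeR adjusted p = 0.0096) and -3.85 in WT libraries (edgeR adjusted p = 0.142; called by DESeq2), and the difference between genotypes was not tested. Zeb2 was present in every population, from 30.2 ± 11.1 CPM in WT ST-HSCs to 114 ± 13 CPM in WT GMPs, and the step from ST-HSCs to CMPs was called in Tet2-/- libraries (19.9 ± 7.56 against 88.7 ± 14.7 CPM, log2 fold change 2.14, edgeR adjusted p = 0.0049). In WT libraries the same step was 1.55 with an adjusted p of 0.42, and it was called with only the 2 populations in the fit. The difference between genotypes at this step was not tested.

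By step of the hierarchy, all 8 factors were tested. From LT-HSCs to ST-HSCs 0 of 8 were called by edgeR in WT (1 at an unadjusted p below 0.05, 0 by DESeq2) and 0 of 8 in Tet2-/- libraries (0 and 0), where 0.175% and 0.118% of genes were. From ST-HSCs to CMPs it was 1 in WT (Spi1, higher) beside 5% of genes, and 1 in Tet2-/- (Zeb2, higher) beside 3.33%. From CMPs to GMPs it was 1 in WT (Cebpe, higher; 0 with the replicate number as a block) beside 3.15%, and 0 in Tet2-/- by edgeR (2 unadjusted, 2 by DESeq2) beside 3.08%. From CMPs to MEPs 3 were called lower in WT (Cebpe, Spi1 and Gfi1) beside 6.45%, and 3 lower in Tet2-/- (Cebpa, Spi1 and Gfi1) beside 3.62%. These were the largest shares of the factors at any step. In Tet2-/- CMPs and MEPs libraries of 1 number deviated together (correlations 0.14 to 0.17 in all 4 pairs), and the block kept these 3 calls. The WT Cebpe call from CMPs to MEPs was lost with the block and without WT MEP replicate 3, 4 or 5 or WT CMP replicate 5, and the Tet2-/- Gfi1 call without Tet2-/- MEP replicate 2, 3 or 4.

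CLPs against ST-HSCs gave 1 call in WT (Spi1, higher) beside 24.5% of genes and 2 in Tet2-/- (Spi1 and Zeb2, higher) beside 20.1%. CLPs against GMPs gave 2 in WT (Cebpe and Spi1, lower) beside 19.9% and 2 in Tet2-/- (Cebpa and Zeb2, lower) beside 9.71%. Macrophage and dendritic cell markers summed to 2592 to 3876 CPM in WT CLPs and their part in the Spi1 level of CLPs was not tested. Fitted on the 2 populations alone, no factor was called between CLPs and ST-HSCs in either genotype. Without Tet2-/- CLP replicate 3 the Tet2-/- log2 fold change of Zeb2 between CLPs and ST-HSCs was 0.49, with an adjusted p of 0.23, and its call was also lost without Tet2-/- ST-HSC replicate 2 or 4. Spi1 lost its call there in 6 of 8 fits that left out 1 library and with the block. Fitted on the 2 populations alone, CLPs against GMPs kept the WT Cebpe call and lost the WT Spi1 call and both Tet2-/- calls. The Cebpa call between CLPs and GMPs was lost without Tet2-/- GMP replicate 3.

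By likeness of profile (Pearson r of log2 CPM over the 22 WT libraries, among 8846 genes with a mean of at least 10 CPM), Spi1 was most like F13a1 (r = 0.961), Hp (0.953) and Tifab (0.942). Over the 24 Tet2-/- libraries these pairs had r of 0.608, 0.441 and 0.649. The genes were chosen for the highest r in the WT libraries, so a lower r in libraries not used for the choice says nothing about genotype. Cebpe was most like Aldh2, Gpi1 and Alas1 (0.959, 0.917 and 0.915 in WT, and 0.823, 0.863 and 0.876 in Tet2-/- libraries). Cebpa was most like Rab44, Ccl9 and Gm11505 (0.931, 0.916 and 0.871, and 0.526, 0.879 and 0.866 in Tet2-/- libraries), Gfi1 like Il6ra, Pgm1 and Fgl2 (0.901, 0.884 and 0.874, and 0.490, 0.244 and 0.721), and Zeb2 like 4930579G24Rik, Suv39h1 and Emilin2 (0.981, 0.976 and 0.974, and 0.484, 0.761 and 0.455). Cebpd was nearest to Brd3, Rab44 and Qsox2 (0.836, 0.811 and 0.793, and 0.641, 0.528 and 0.224), Cebpb to Cnrip1, Zfp608 and Chd9 (0.917, 0.875 and 0.855, and 0.521, 0.528 and 0.427), and Cebpg to Gmds, Atg4a and BC030867 (0.721, 0.711 and 0.699, and -0.01, -0.18 and 0.36). Among the factors themselves the highest WT values were 0.80 for Cebpe with Spi1 and 0.79 for Cebpa with Cebpd, and in Tet2-/- libraries these pairs had 0.55 and 0.56. The highest Tet2-/- values were 0.77 for Cebpe with Zeb2 and 0.73 for Cebpa with Cebpe, pairs with 0.41 and 0.65 in WT libraries. The libraries of a population share its sort, and these values are descriptions.

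The second table holds LT-HSCs of another set, scaled on its own. Spi1 stood at 165, 140 and 121 CPM in the libraries labelled WT, at 54.0, 32.9 and 25.8 CPM in Sting-/- and at 0.127, 0.939 and 5.78 CPM (4, 67 and 250 counts) in Tet2;Sting DKO libraries by label. None of the 3 groups overlapped, and the whole-gene RNA counts of Tet2 and Tmem173 in these libraries did not follow their labels. Summed macrophage and dendritic cell markers and primary granule genes were higher in Tet2;Sting DKO libraries, while WT and Sting-/- libraries overlapped. Erythroid markers were not, at 3312 to 3818 CPM in Tet2;Sting DKO and 2514 to 4424 CPM in WT libraries. Nor were megakaryocyte markers, at 978 to 1006 and 674 to 1124 CPM. The 8 macrophage and dendritic cell markers summed to 812 to 1336 CPM in WT, 869 to 1500 CPM in Sting-/- and 2092 to 3614 CPM in Tet2;Sting DKO libraries. Only 3 of these 8 markers had counts in Tet2;Sting DKO libraries. Primary granule genes summed to 2636 to 3489, 3181 to 3648 and 4845 to 5200 CPM, and the part of other cells in the Spi1 values was not tested. Against WT the log2 fold change was -1.90 ± 0.34 for Sting-/- (n = 3 and 3, edgeR adjusted p = 0.709, unadjusted p = 0.0079) and -6.00 ± 1.47 for Tet2;Sting DKO (n = 3 and 3, edgeR adjusted p = 0.129, unadjusted p = 0.0026). Tet2;Sting DKO lay -4.02 ± 1.5 from Sting-/- (edgeR adjusted p = 0.726). With 3 libraries a group the exact permutation p was 0.10 for each pair, the smallest this design allows. By DESeq2 the first pair of differences was called (adjusted p = 0.00516 and 0.00017) and the third was not.

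Other factors were uneven there, in libraries with counts for 9382 to 11528 genes. Cebpa, Cebpd, Cebpe and Gfi1 did not pass the low-count filter and were not tested. Gfi1 had 1323 counts (18.6 CPM) in Tet2;Sting DKO replicate 2 and 106 counts in WT replicate 1. Cebpe had 390 counts (10.1 CPM) in WT replicate 1. Both genes were at 0 in the other libraries. Zeb2 spread from 0.0924 to 153 CPM among the Tet2;Sting DKO libraries alone, and Cebpg from 0 to 25.1 CPM. Cebpb had 3.38, 5.01 and 5.09 CPM in WT, 1.72, 2.58 and 1.09 CPM in Sting-/- and 2.06, 1.88 and 0.878 CPM in Tet2;Sting DKO libraries. The WT libraries were above all others, but the edgeR adjusted p was 1 and 0.895. Of 4 factors tested 0 were called by edgeR in each comparison (1, 1 and 0 at an unadjusted p below 0.05), beside 0% of 9969 genes for Sting-/- against WT, 0.657% of 9745 for Tet2;Sting DKO against WT and 0.159% of 9437 for Tet2;Sting DKO against Sting-/-. Leaving out 1 library brought the 64 calls behind the second share to between 2 and 41, with 2 without WT replicate 3 or Tet2;Sting DKO replicate 3, and the 15 calls behind the last to 0 in each such fit. The test recovered 3.26% of simulated 4-fold changes in the second of these.

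**Figure D5:**
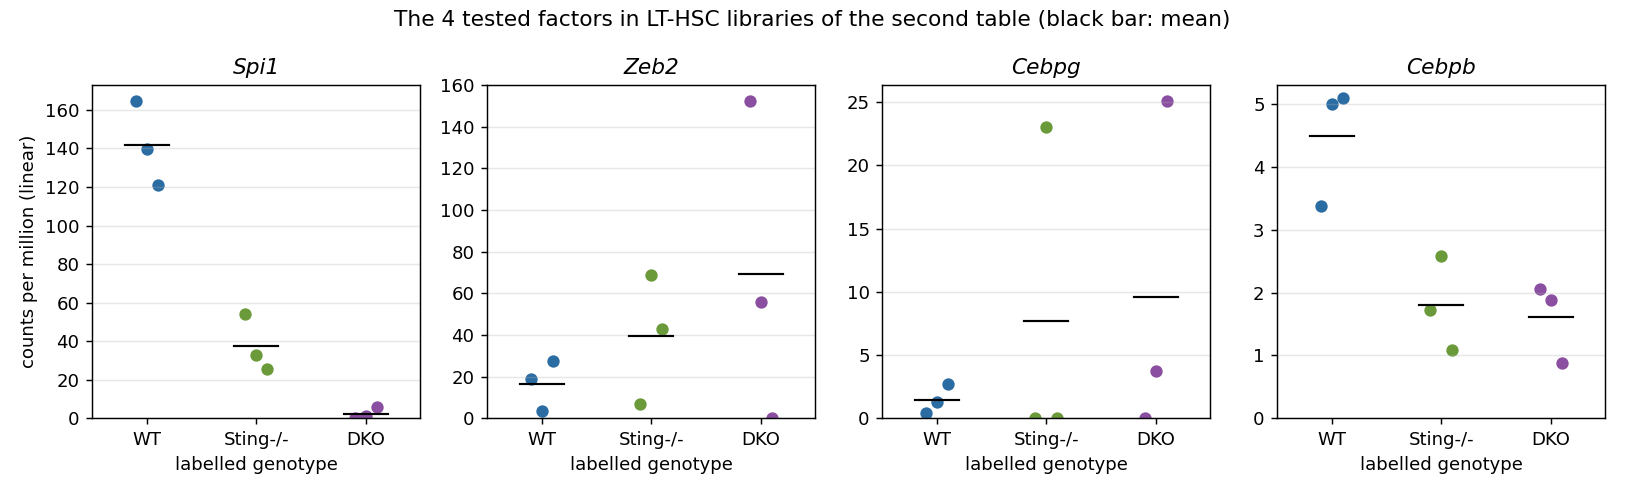
CPM on linear axes of the 4 tested factors in the 3 libraries of each labelled genotype of the second table, with means as black bars. Spi1 lies at 121 to 165 CPM in WT and at 5.78 CPM or less in Tet2;Sting DKO libraries with no overlap, while Zeb2 and Cebpg overlap between genotypes.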

How the data were processed

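Bone marrow populations were sorted and sequenced as full-length RNA libraries by the authors. The labels name a SMART-seq kit and the Smart-seq2 protocol without saying which library had which. The authors' methods name Trim Galore and HISAT2 on mm10. The submitters' processing notes give Trim Galore 0.6.7, while the paper's methods give an earlier version. Whether strand was used in counting is not given in the sources used here. The deposited values were raw read counts per gene in 2 tables of 55421 and 35976 usable genes, and 2 lines of the second that were cut short were left out. Every library's column matched its label.

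Counts were fitted with edgeR 4.0.16 (R 4.3.3; low-count filter, TMM scaling, quasi-likelihood F test, prior count of 2), per population for genotypes, per genotype for populations and over 46 libraries for the interaction. CPM were scaled over all libraries of a table. DESeq2 1.42.0, other scalings, filters and library subsets were alternatives. Exon lengths and positions were from GENCODE vM21 (mm10). The test was checked on simulated counts. Fits that left out 1 library in the interaction test took the dispersions of the full fit.

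The 8 members and the lists were chosen with earlier results of these data known. Named were all 8 members in every comparison, Tet2 as the targeted gene, of each list the genes called (the 4 with the largest change where more were; where none was, up to 2 by smallest p), and for each member the 3 genes with the highest r. Tmem173 was added after its values were seen. The paper describes the LT-HSC libraries as 1 per mouse and gives its numbers as mice, while the labels do not name the animals, so for the other populations p-values measure the spread between libraries, and 1 replicate number recurs in both genotypes without marking a shared animal. Over 22 same-numbered pairs of WT and Tet2-/- libraries the correlation of deviations from the group means was -0.06 to 0.12. Intervals cover counting error and library spread only. Depth was 50458473 counts or more in the first table, and its effect on the calls was not tested.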

Additional observations from a re-analysis of the deposited data

Results flagged for a closer look

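The genotype difference of Spi1 differed between populations (edgeR F test over 46 libraries, adjusted p = 0.000132): it was called lower in CMPs, GMPs and MEPs labelled Tet2-/-, and the log2 fold change was -0.10 in LT-HSCs, 0.68 in ST-HSCs and 0.25 in CLPs. Over the 258 genes called lower with Spi1, the 12 WT libraries of CMPs, GMPs and MEPs lay above their Tet2-/- counterparts by the choice of genes. They also stood apart from LT-HSCs and ST-HSCs of both labels. This property and the genotype cannot be told apart.

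Of 77 groups of 4 libraries and 1 gene that were tested with Dixon's criterion, 8 had a library far from its others. In 4 of these the other 3 libraries were at 0, where the criterion is met by construction, and for the remaining 4 chance would give about 1 in 20 groups. Zeb2 stood at 108 CPM in Tet2-/- CLP replicate 3, and Gfi1 at 29.1 CPM in Tet2-/- GMP replicate 3. Cebpd reached 7.12 CPM in Tet2-/- ST-HSC replicate 5, and Cebpb 3.5 CPM in Tet2-/- CLP replicate 4. The remaining values came from few counts: Cebpe at 0.655 CPM in Tet2-/- ST-HSC replicate 5, at 0.281 CPM in Tet2-/- LT-HSC replicate 4 and at 0.08 CPM in WT MEP replicate 2, and Gfi1 at 0.0503 CPM in Tet2-/- MEP replicate 5.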

How the results depend on the processing

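Spi1 stayed called and lower in CMPs, GMPs and MEPs under every alternative tried, with highest adjusted p-values of 0.00207, 0.00295 and 0.0205 and log2 fold changes of -3.24 to -2.98, -2.68 to -2.53 and -3.68 to -3.16 when 1 library was left out. Its differences in LT-HSCs and CLPs, which were not called, changed sign: -0.29 to 0.09 and -0.08 to 0.84 when 1 library was left out. The cause of the changes below was not tested.

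The number of factors called was 1 in CLPs by genotype (Cebpe, higher in Tet2-/- libraries) when all 46 libraries entered 1 fit, beside 1477 of 22360 genes. By DESeq2 it was 1 for Sting-/- and 1 for Tet2;Sting DKO against WT (Spi1, log2 fold change -1.93 and -6.01). DESeq2 also gave 2 for WT CMPs against ST-HSCs, 5 for WT MEPs against CMPs and 2 for Tet2-/- GMPs against CMPs. Over all genes it called 2257 and 2368 of 30612 in these WT steps and 1706 of 31319 in the Tet2-/- step. The next counts had only the 2 populations in the fit, with the calls over all genes in brackets. For CMPs against ST-HSCs it was 2 in WT (2012 of 16428) and 2 in Tet2-/- libraries (1510 of 16014). For GMPs against CMPs it was 3 in WT (2191 of 16284) and 4 in Tet2-/- libraries (2747 of 16588). WT MEPs against CMPs gave 5 (2282 of 15547). CLPs against ST-HSCs gave 0 in WT (2247 of 15099) and 0 in Tet2-/- libraries (1146 of 14836). CLPs against GMPs gave 1 in WT (2554 of 15433) and 0 in Tet2-/- libraries (1213 of 15723). Leaving out 1 library gave 1 to 2 for WT CMPs against ST-HSCs, 0 to 1 for WT GMPs against CMPs, 0 to 2 for Tet2-/- CLPs against ST-HSCs and 1 to 3 for Tet2-/- CLPs against GMPs. Without the CMP, GMP and MEP libraries, an alternative added after seeing the data, 0 factors passed the interaction test. With 1 library left out, 187 counts of factors stayed within 1.5 times the main count and 15 did not, and of the values of single factors 196 kept their direction and call, 24 lost a call and 4 changed sign.

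Whether the replicate numbers of the labels pair the genotypes cannot be decided here, since pairs of unlike number were not compared. Of 22 same-numbered pairs 4 had a correlation of deviations over 0.1, and of 9 pairs in the second set 0 did. The median was 0.051 over the 22 pairs, beside 0.048 between WT populations and 0.058 between Tet2-/- populations of 1 number. Between populations of 1 genotype 17 of 60 Tet2-/- pairs and 8 of 51 WT pairs were over 0.1. With the replicate block the factors called were 0 for WT GMPs against CMPs (Cebpe at 5.50, edgeR adjusted p = 0.0636) and 1 for Tet2-/- CLPs against ST-HSCs. For WT MEPs against CMPs it called 2 in place of 3, without Cebpe (-4.40, edgeR adjusted p = 0.0552), and Spi1 lost its call between Tet2-/- CLPs and ST-HSCs (1.67, adjusted p = 0.0607). The number stayed at 1 in the genotype comparisons of CMPs, GMPs and MEPs. Over all genes the block gave 527, 658 and 526 calls in CMPs, GMPs and MEPs in place of 734, 723 and 651, and 26 in place of 64 for Tet2;Sting DKO against WT. DESeq2 gave 1234, 1068 and 1049, 237 in LT-HSCs, 331 in ST-HSCs, 461 in CLPs, 414 for Sting-/- against WT, 1351 for Tet2;Sting DKO against WT and 794 for Tet2;Sting DKO against Sting-/-. With all 46 libraries in 1 fit there were 285, 219 and 423 calls in CMPs, GMPs and MEPs, 20 in LT-HSCs, 21 in ST-HSCs and 1477 in CLPs in place of 4, 3 and 1. With 1 library left out the calls were 2 to 41 for Tet2;Sting DKO against WT and 0 in place of 15 against Sting-/-, and with no low-count filter they were 105 and 47.

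Groups held 3 or 4 libraries. With 4 in each group, the test recovered 68.8% of simulated 4-fold changes in the GMP genotype comparison and 0% in that of CLPs. Low counts limited Gfi1 in MEPs and Cebpe in LT-HSCs, ST-HSCs and MEPs.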
